A study of Mus musculus with 2 samples.

Results

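Regulatory-type stromal cells of inguinal white adipose tissue (iWAT) were examined here as 54 nuclei chosen from 6593 nuclei that passed the quality limits, in a single-nucleus RNA-seq comparison of 2 libraries. A nucleus was chosen when it had at least 500 detected genes, at most 5% of its unique molecular identifiers (UMIs, each standing for 1 captured RNA molecule) from mitochondrial genes, and at least 1 UMI of at least 3 of the 6 markers F3, Fmo2, Gdf10, Meox2, C2 and Mgp. It also needed a UMI of Pdgfra, Dcn or Col3a1, which mark stromal cells. It could hold at most 2 of 9 genes of interstitial progenitors (Pi16, Dpp4, Opcml, Limch1, Creb5, Smpd3, Anxa3, Cd248 and Mfap5) and at most 1 of 4 adipocyte genes (Plin1, Plin4, Cidec and Lipe). Because these counts chose the nuclei, the levels of these genes in them are a description and carry no test.

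One library came from Lexis-AdWT mice, which carry floxed alleles of the long noncoding RNA Lexis (Lexis fl/fl) and no Cre, and the other from Lexis-AdKO mice, which carry the same floxed alleles and a Cre recombinase driven by the adiponectin promoter, a promoter of adipocytes. All mice were male and fed a Western diet, and the iWAT of 3 mice was pooled for each library, with the lymph node removed. There was 1 library per genotype, so no p-value between genotypes can be given, and all intervals are at 95% and reflect counting error alone. The matrices had no row for Lexis, and the deposited files carried the opposite genotype in their names from the one in the sample labels, so the libraries are called labelled WT and labelled KO throughout.

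Fibroblast-like stromal cells of adipose tissue include interstitial progenitors marked by Dpp4 and Pi16, committed preadipocytes, and a population marked by F3 (the coagulation initiator tissue factor, also called CD142) that is known as adipogenesis-regulatory cells because cells sorted on CD142 were described to restrain fat cell formation in their neighbours. The other markers of the rule have quite different roles: Fmo2 is a flavin-containing monooxygenase, Gdf10 is a secreted member of the TGF-beta superfamily, Meox2 is a homeobox transcription factor, C2 is a component of the classical complement pathway, and Mgp (matrix Gla protein) is an inhibitor of calcification.

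The libraries held 9376351 UMIs (labelled WT) and 19655049 UMIs (labelled KO) over 5000 barcodes each, and 12 barcodes occurred in both. After the quality limits, 3649 nuclei with a median of 1208 UMIs remained in the library labelled WT, and 2944 nuclei with a median of 3973.5 UMIs in the library labelled KO. A single member had a barcode that occurred in both libraries. Doublets were not removed, and Scrublet marked 1 of the 44 members of the library labelled KO and 0 of the 10 members of the library labelled WT.

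The rule chose 44 nuclei labelled KO and 10 labelled WT. The share was 1.49% of kept nuclei in the library labelled KO (exact Clopper-Pearson interval 1.09% to 2.00%) and 0.274% in the library labelled WT (0.131% to 0.503%), a ratio of 5.45 (2.70 to 12.2). As a share of the members, progenitors and other stromal nuclei together it was 7.84% (5.76% to 10.4%) against 2.11% (1.02% to 3.85%). The rule counts detected genes, and the typical nucleus of the library labelled WT was much shallower. After nuclei were thinned to 1000 UMIs, which left out 1238 shallower nuclei labelled WT and 117 labelled KO, the shares were 1.49% and 0.290%, a ratio of 5.12 (2.28 to 13.5). The rule was applied again to the thinned counts, where its limits on progenitor and adipocyte genes are easier to meet. The 42 nuclei labelled KO and 7 labelled WT so chosen need not be the original members, and the overlap was not counted. In the original 44 members labelled KO, thinning lowered the share with F3 from 77.3% to 54.5%. Among nuclei with at least 1000 detected genes, the shares were 1.41% and 0.745%, and the ratio of 1.89 had an interval that included 1 (0.862 to 4.70).

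The members themselves were of similar depth, with a median of 3609.5 UMIs and 1722.5 genes in the library labelled KO, and 3772.5 UMIs and 1723.5 genes in the library labelled WT. Their summed counts were 166501 and 39571 UMIs. They were compared within each library with 2 other stromal classes. Pi16 and Dpp4 progenitors (382 nuclei labelled KO, 145 labelled WT) held at least 3 of the 9 progenitor genes, and other stromal nuclei (135 labelled KO, 318 labelled WT) held at least 2 of Pdgfra, Dcn and Col3a1, and both classes had at most 2 of the 6 markers. Both comparison classes also had limits on immune and endothelial genes that the members did not have. Levels are given as CPM, the summed UMIs of a gene scaled to a common total, and a ratio is the CPM of 1 class over that of another, with an exact conditional binomial interval.

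For 3 genes of these nuclei the promoter is shown as the stretch before the RefSeq start (build GRCm38.p6, 5′ to 3′ on the gene's strand), because F3 and Gdf10 give the nuclei their name and C7 was the most abundant gene of the complement list in members labelled KO. Promoters were found for 8 of the 10 genes sought, and C2 and Mgp had no entry. Capitals mark letters of 4 motifs sought on both strands: AP-1 site (TGAGTCA), GC box (GGGCGG), E-box (CAGCTG) and TATA box (TATAAA). A TCF/LEF site (CTTTGAT) and a CCAAT box (CCAAT) were sought as well and had no match in these 3 stretches. The F3 stretch is chr3:121723287-121723536 on the plus strand, that of Gdf10 is chr14:33923337-33923586 on the plus strand, and that of C7 is chr15:5063774-5064023 on the minus strand.
F3: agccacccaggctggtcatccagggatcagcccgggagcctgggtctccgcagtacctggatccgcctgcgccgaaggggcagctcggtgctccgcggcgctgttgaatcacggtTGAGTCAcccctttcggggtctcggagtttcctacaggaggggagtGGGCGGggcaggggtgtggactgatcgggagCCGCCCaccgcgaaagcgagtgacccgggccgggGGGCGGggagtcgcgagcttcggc
Gdf10: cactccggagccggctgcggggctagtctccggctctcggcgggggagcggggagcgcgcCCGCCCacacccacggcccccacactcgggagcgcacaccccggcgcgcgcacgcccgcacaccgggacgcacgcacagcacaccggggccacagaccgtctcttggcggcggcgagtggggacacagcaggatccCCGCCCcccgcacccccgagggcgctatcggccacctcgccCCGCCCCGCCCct
C7: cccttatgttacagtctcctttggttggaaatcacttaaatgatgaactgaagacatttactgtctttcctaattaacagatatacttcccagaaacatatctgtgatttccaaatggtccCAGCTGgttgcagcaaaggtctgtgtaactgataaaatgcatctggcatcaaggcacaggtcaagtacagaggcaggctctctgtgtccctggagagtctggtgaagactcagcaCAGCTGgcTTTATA

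The F3 stretch held an AP-1 site 135 to 129 bases before the start, which 4.46% of the 32851 RefSeq mouse promoter stretches of the same length hold, and 3 GC boxes, where 32.7% of stretches hold at least 1. Gdf10 held 4 GC boxes, of which the nearest to the start share a base, and Meox2, Gas6 and Clec11a held 1, 4 and 1. C7 held no GC box, and held 2 E-boxes (13% of stretches hold at least 1) and a TATA box (12.4% of stretches). These are matches of letters, and no binding was measured.

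The 6 markers were present together in only a few nuclei. In the library labelled KO, 22 members held exactly 3 of the 6, 11 held 4, 5 held 5 and 6 held all 6. Among members labelled WT the numbers were 6, 3, 0 and 1. Just outside the threshold, 34 nuclei labelled KO and 28 labelled WT held 2 of the 6 while meeting the other limits, at median depths of 3097 and 1837.5 UMIs. A further 18 nuclei labelled KO were left out because they held exactly 3 of the 9 progenitor genes, and 11 because they held 2 of the 4 adipocyte genes. Without any of the other limits, 151 nuclei labelled KO and 28 labelled WT held at least 3 of the 6.

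F3 was the marker found in the most members, in 34 of 44 nuclei labelled KO (140 UMIs, 841 CPM, interval 707 to 992) and in 8 of 10 labelled WT (30 UMIs, 758 CPM, 512 to 1082). Mgp was found in 33 nuclei labelled KO and was the most abundant marker, at 188 UMIs (1129 CPM), of which 56 lay in a single nucleus. Fmo2 was found in 31 nuclei (134 UMIs, 805 CPM), Gdf10 in 30 (96 UMIs, 577 CPM) and Meox2 in 28 (105 UMIs, 631 CPM). C2 was the scarcest, in 15 nuclei with 39 UMIs (234 CPM). The UMIs were spread unevenly: the 3 nuclei with the most UMIs held 58 of the 140 of F3, 43 of the 105 of Meox2 and 92 of the 188 of Mgp.

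Among the members labelled WT the markers did not appear in the same proportions. Fmo2 had 5 UMIs in 3 nuclei and Meox2 had 4 UMIs in 4 nuclei, against C2 with 9 UMIs in 8 nuclei and Mgp with 21 UMIs in 8 nuclei. The single nucleus with all 6 markers held 14 of the 30 UMIs of F3. As a pair, F3 and Mgp were found together in 26 of the 44 members labelled KO, F3 and Fmo2 in 24, F3 and Gdf10 in 22, and Meox2 and Gdf10 in 17.

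Many members held some of the genes used to keep nuclei out, within the limits of the rule. Of the 44 members labelled KO, 22 held 2 of the 9 progenitor genes, the most the rule allows, and 9 held none. Only 13 held none of the 4 adipocyte genes. In the members labelled KO, Dpp4, Limch1 and Smpd3 were at 0 UMIs, which at 3 counts of the total corresponds to a limit of 18 CPM. Pi16 was found in 4 nuclei and Creb5 in 3. Mfap5, a microfibril protein, was found in 23 nuclei, Opcml, a cell adhesion molecule, in 10 with 94 UMIs, and Cd248 in 10 with 23 UMIs. The stromal genes were abundant: Col3a1 (type III collagen) was found in all 44 members labelled KO at 10096 CPM, and Dcn (decorin) in 41 at 6607 CPM.

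**Figure D1:**
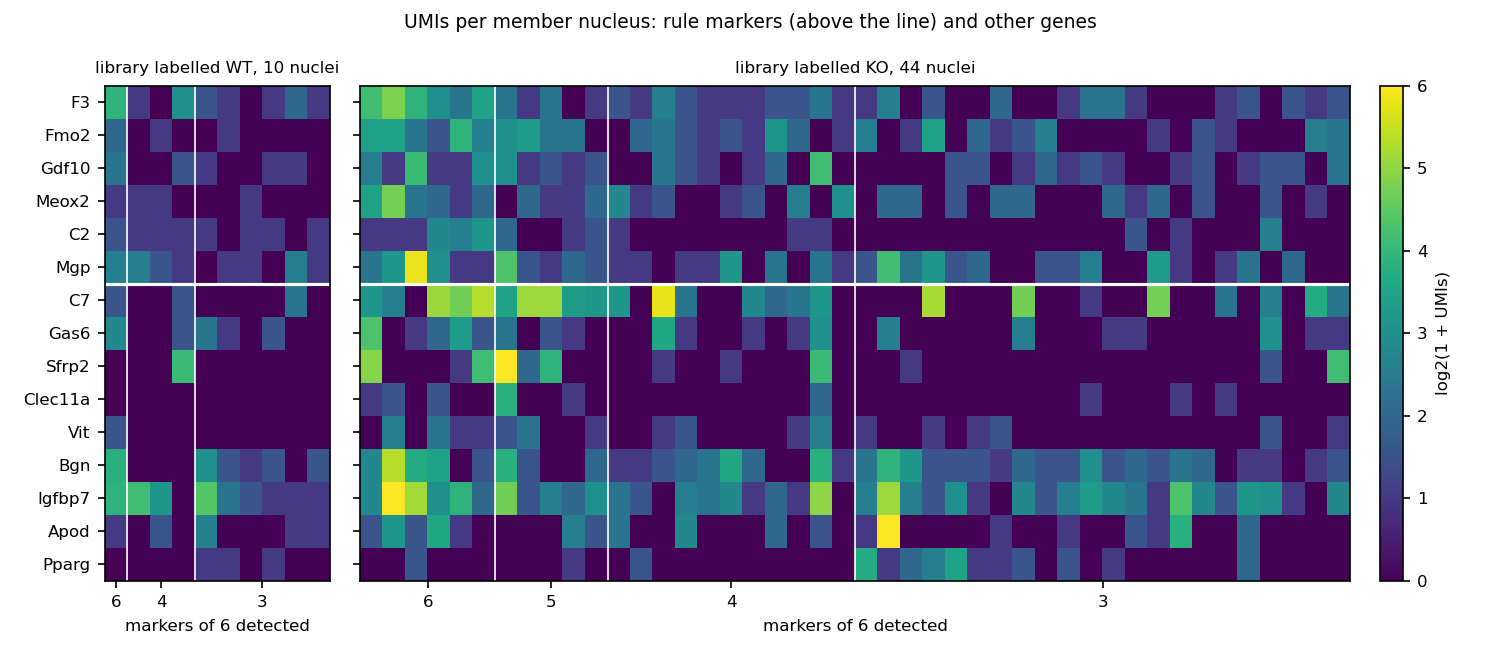
UMIs of the 6 rule markers (above the white line) and of 9 other genes (below it) in each member nucleus, as log2(1 + UMIs), with nuclei in columns ordered by how many of the 6 markers they held. C7 is bright in many of the nuclei with 4 to 6 markers, and Pparg is seen mainly among the nuclei with 3.

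As a description of how the 6 markers coincide, each marker was left out in turn and nuclei were chosen by at least 3 of the other 5, with all other limits kept. These ratios rest on the genes and nuclei from which the rule was drawn and are no independent evidence for it. The left-out gene was higher in the chosen nuclei than in the other stromal nuclei for every one of the 6 genes in the library labelled KO. Mgp was at 1124 CPM against 160 CPM, a ratio of 7.02 (5.22 to 9.52). F3 was at 906 CPM in 31 chosen nuclei, with a UMI in 21 of them, against 132 CPM, a ratio of 6.89 (4.98 to 9.61). The ratio was 5.54 (3.98 to 7.75) for Fmo2, 5.44 (2.85 to 10.8) for C2, 5.33 (3.64 to 7.87) for Gdf10 and 3.83 (2.75 to 5.36) for Meox2.

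For the library labelled WT the same measure rested on 5 to 9 chosen nuclei. F3 stood at 1464 CPM against 98.6 CPM, a ratio of 14.9 (8.58 to 24.9), and Mgp had a ratio of 12 (5.6 to 24.8). Meox2 had 3 UMIs in the chosen nuclei and a ratio of 2.16, with an interval that included 1 (0.412 to 7.29). At 1000 UMIs per nucleus the ratios in the library labelled KO were 6.14 for F3, 5.86 for C2, 5.47 for Mgp, 4.90 for Fmo2, 3.38 for Meox2 and 3.1 for Gdf10. For the library labelled WT at this depth, 3 to 7 nuclei were chosen, the ratio of F3 was 39.1 (20.7 to 70.9) from 17 UMIs, that of Mgp was 7.59 from 2 UMIs with an interval that included 1 (0.868 to 30.7), and Meox2 had 0 UMIs in its 7 chosen nuclei.

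In a further description nuclei were placed without the rule genes, although the classes counted are the ones those genes define. Members, progenitors and other stromal nuclei of the library labelled KO were placed by 2000 variable genes without the rule genes, in 20 principal components. Of the 15 nearest neighbours of a member, 25.9% on average were members, while members were 7.84% of the 561 nuclei. This share was 33.9% for the 22 members with 4 to 6 markers and 17.9% for the 22 members with 3. It was 9.78% for other stromal nuclei and 2.25% for progenitors. The members did not form a group apart: 38.9% of their neighbours were other stromal nuclei and 35.2% were progenitors, and for 9 of the 44 members the share did not exceed the share in the pool.

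**Figure D2:**
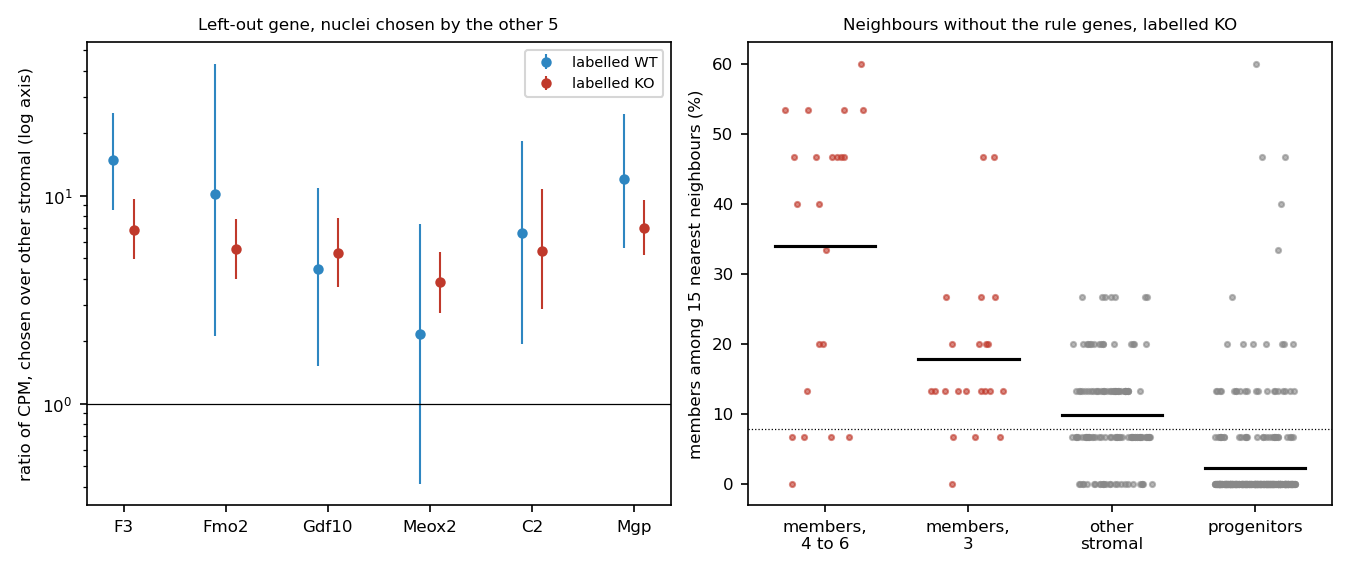
Left, the ratio of CPM (log axis) of each left-out marker in nuclei chosen by the other 5 over other stromal nuclei, with 95% intervals for counting error, for both libraries. Right, the percentage of members among the 15 nearest neighbours of each nucleus labelled KO without the rule genes, where black lines are means and the dotted line is the share of members in the pool (7.84%); members with 4 to 6 markers have the highest mean, 33.9%.

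Further genes known from regulatory-type stromal cells that the rule did not use were looked at as a list of 12. Clec11a, a secreted sulphated lectin growth factor, had 25 UMIs in 9 members labelled KO (150 CPM), against 4 UMIs in other stromal nuclei and 5 UMIs in progenitors. The ratio was 15.5 (5.35 to 61.3) over other stromal nuclei and 43.2 (16.2 to 144) over progenitors. A single nucleus held 13 of the 25 UMIs, and without it the ratios were 7.72 (2.34 to 32.8) and 21.5 (7.04 to 77.8). Clec11a was at 0 UMIs in the members labelled WT. In macrophage-marker nuclei of the library labelled KO, which should not express it, 1.29% had a UMI against 20.5% of members, at median depths of 3376 and 3609.5 UMIs.

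Vit (vitrin), a matrix protein, had 35 UMIs in 17 members labelled KO and stood at 210 CPM against 24.2 CPM in other stromal nuclei, a ratio of 8.68 (4.21 to 19.7), and the ratio over progenitors was 5.49 (3.49 to 8.54). Bgn (biglycan), a small proteoglycan, was found in 37 of the 44 members at 1153 CPM, a ratio of 2.77 (2.24 to 3.42) over other stromal nuclei and 5.28 (4.39 to 6.34) over progenitors. Cygb (cytoglobin) had ratios of 1.88 (1.07 to 3.26) and 3.79 (2.27 to 6.16). Igfbp3 had a ratio of 11.2 (3.68 to 45.4) over other stromal nuclei, but 17 of its 18 UMIs lay in 3 nuclei, and without the highest nucleus the ratio was 3.25 (0.699 to 16.4). In the library labelled WT the direction differed, with 0 UMIs of Igfbp3 in members and 187 in other stromal nuclei.

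Other genes of this list had few counts or ratios near or below 1. Abcg1, a cholesterol exporter, had 2 UMIs in the members labelled KO, Rtp4 had 1, and Ednra (endothelin receptor A) had 12 UMIs at a ratio of 0.763 (0.364 to 1.49) over other stromal nuclei. Fgf12, an intracellular FGF homologue, had 7 UMIs in 2 members against 1 UMI in other stromal nuclei, a ratio of 17.4 (2.23 to 783), and a ratio over progenitors of 2.01 (0.747 to 4.68). Nectin3 had 6 UMIs and Aldh1a2, an enzyme of retinoic acid synthesis, had 5 UMIs in a single nucleus. With at least 50 counts over both classes, 3 of the 12 could be measured against other stromal nuclei, and 1 of them, Bgn, had a ratio of at least 2. Over all 2369 genes measured outside the rule, 3.33% were at or above a ratio of 2 and 5.36% at or below 0.5, and the median log2 ratio was -0.05.

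**Figure D3:**
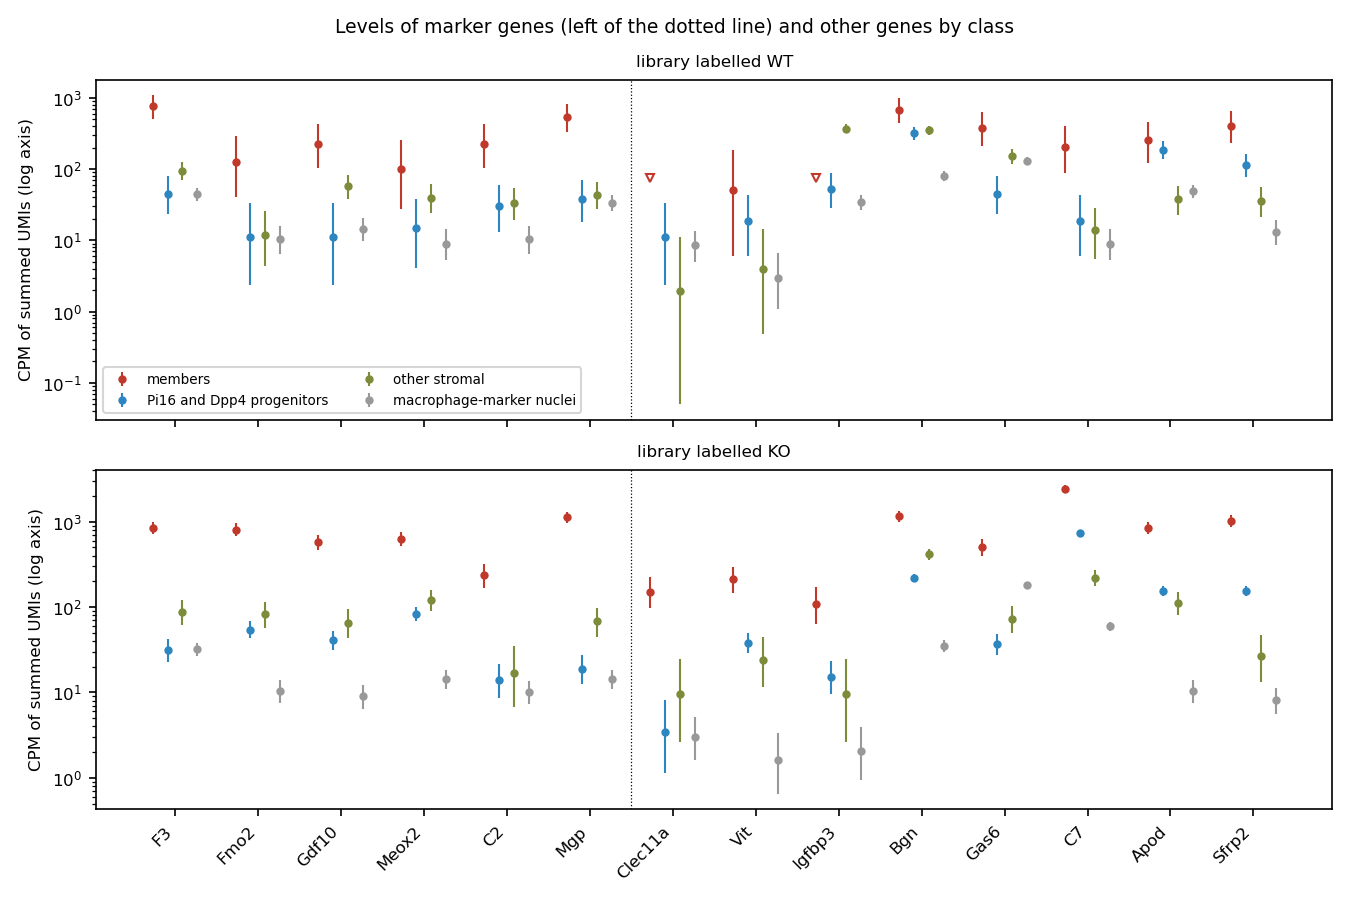
CPM of summed UMIs (log axis) with 95% Poisson intervals for the 6 markers and 8 other genes in members, progenitors, other stromal nuclei and macrophage-marker nuclei of each library. Open triangles stand for 0 UMIs, drawn at 3 counts; in the library labelled KO the members lie above the 3 other classes for all 14 genes.

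The genes outside the rule that were highest in the members labelled KO over other stromal nuclei were ranked among genes with at least 50 UMIs in the members. They were Gm26771, Plcxd3, Sfrp2, Gria4, C7, Gabra3, Apod, Gas6, Kcnt2, Col14a1, Pid1, Cst3, Prickle1, Csmd1 and Timp2. Several of them were carried by few nuclei. Csmd1 had 146 UMIs in 13 members, of which 54 lay in a single nucleus. Its ratio of 3.07 was 1.98 (1.49 to 2.62) without that nucleus, below the threshold of 2. Gm26771, a noncoding RNA, had 50 UMIs in 8 members against 1 UMI in other stromal nuclei, a ratio of 124 (21.3 to 4997), and 27 of its UMIs lay in a single nucleus, without which the ratio was 59.2 (9.61 to 2437).

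Sfrp2, a secreted WNT inhibitor, had 169 UMIs in 12 members (1015 CPM), of which 113 lay in 3 nuclei. The ratio was 38.1 (20.8 to 77.8) over other stromal nuclei and 6.57 (5.35 to 8.06) over progenitors, and 23.9 and 4.11 without the nucleus with the most UMIs. Gria4, an AMPA-type glutamate receptor subunit, had 81 UMIs in 8 members and ratios of 18.3 (9.69 to 38.0) and 7.44 (5.46 to 10.1). Plcxd3, a phospholipase-domain protein, had 83 UMIs in 9 members and ratios of 51.5 (19.4 to 193) and 3.05 (2.34 to 3.93). Without the nucleus that held 32 of them these were 32.3 and 1.91 (1.39 to 2.60). Gabra3, a GABA-A receptor subunit, had 71 UMIs in 18 members and a ratio of 8.01 (4.90 to 13.6) over other stromal nuclei. Over progenitors the ratio of Gabra3 was 1.65 (1.26 to 2.13), and without the nucleus with the most UMIs 1.29 (0.951 to 1.73), which includes 1.

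C7, a terminal complement component of the membrane attack complex, was the most abundant of these genes. It had 406 UMIs in 25 of the 44 members labelled KO (2438 CPM, 2207 to 2688), and no nucleus held more than 55. It stood at 220 CPM in other stromal nuclei, a ratio of 11.1 (8.80 to 14.1), and at 729 CPM in progenitors, a ratio of 3.34 (2.97 to 3.75). A UMI of C7 was found in 56.8% of members and in 3.43% of macrophage-marker nuclei, and after thinning to 1000 UMIs in 54.5% and 2.00%. C7 was not confined to the members among stromal nuclei. Before thinning, a UMI was found in 44.2% of progenitors and in 17% of other stromal nuclei labelled KO. The members labelled WT had 8 UMIs of C7 in 3 nuclei (202 CPM), so that its level was 12.1-fold higher (6.06 to 28.1) in the members labelled KO. The same direction was seen in progenitors (38.7-fold, 16.5 to 119) and in other stromal nuclei (16.0-fold, 7.44 to 40.8).

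Gas6, a vitamin K-dependent ligand of the TAM receptors and, like Mgp, a Gla protein, had 83 UMIs in 20 members labelled KO (498 CPM). The ratio was 6.86 (4.47 to 10.8) over other stromal nuclei and 13.5 (9.46 to 19.5) over progenitors, the largest over progenitors among genes outside the rule with at least 50 UMIs in the members. Without the nucleus with the most UMIs the ratios were 5.58 and 11. Gas6 was also common in macrophage-marker nuclei of the library labelled KO. A UMI was found in 41.7% of them against 45.5% of members, and after thinning in 17.6% against 29.5%. The limits on immune genes applied to both comparison classes and not to the members. Gas6 had 15 UMIs in the members labelled WT. Apod (apolipoprotein D), a lipocalin that carries small lipids, had 141 UMIs in 19 members, of which 73 lay in a single nucleus; its ratio of 7.61 (5.42 to 10.9) over other stromal nuclei was 3.8 (2.58 to 5.65) without that nucleus.

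Other genes of that ranking were more widely shared among the members. Pid1 was found in 37 nuclei (ratio 3.39, 2.76 to 4.18), Cst3 (cystatin C, a protease inhibitor) in 36 (3.20, 2.60 to 3.94), Prickle1, a planar cell polarity gene, in 30 (3.1, 2.38 to 4.04), and Timp2, an inhibitor of matrix metalloproteases, in 30 (2.99, 2.30 to 3.89). Over progenitors, Timp2 had a ratio of 1.13 (0.936 to 1.36). Col14a1, a fibril-associated collagen, was 3.96-fold higher (2.71 to 5.83) than in other stromal nuclei and lower than in progenitors, at a ratio of 0.602 (0.470 to 0.761).

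The genes that were lowest in the members relative to other stromal nuclei were Neb, Ttn, Trdn, Atp2a1 and Mylk4, all of which are genes of skeletal muscle. Ttn had 3 UMIs in the members and 633 in other stromal nuclei. The 8 skeletal muscle markers summed to 162 CPM in the members labelled KO, with 3 of the 8 (Ryr1, Mybpc1 and Cacng1) at 0, and 4 of the 44 members held 2 or more of them. They summed to 2888 CPM in other stromal nuclei, where 16 of the 135 nuclei held 2 or more of them. Without those 16 nuclei the ratio of Ttn was 0.921 (0.154 to 4.04).

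Of the 10 further progenitor genes that the rule did not use, 9 could be measured against progenitors, and all 9 had a ratio of at most 0.5, beside 13.5% of all 5654 genes measured; since the limit on 9 progenitor genes chose the classes apart, these levels are a description. Sema3c, an axon guidance ligand, had a ratio of 0.102, Cd55, a complement regulator, 0.114, and Ackr3, a scavenging chemokine receptor, 0.108. The matrix genes Fbn1 (fibrillin-1) at 0.144 (0.107 to 0.189), Fn1 (fibronectin) at 0.235 and Efemp1 (fibulin-3) at 0.0928 were also lower in the members than in progenitors. The lowest of all genes with enough counts in progenitors were Sema3e, Rorb, Dact2, Gm12381 and Cmah, which had 1 or 2 UMIs each in the members.

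Among 17 committed preadipocyte genes, 15 could be measured against progenitors, 10 reached 2 or more and 0 lay at 0.5 or less, beside 4.85% and 13.5% of all genes. Sparcl1, a matricellular protein, had a ratio of 6.63 (4.92 to 8.91), the chemokine Cxcl14 5.78 (4.24 to 7.85), the basement membrane collagen Col15a1 4.00 (2.92 to 5.43) and the calcium-binding matrix protein Smoc2 3.43 (2.67 to 4.38). Against other stromal nuclei 14 of the 17 could be measured, 0 had a ratio of at least 2 and 1, Bmper, a ratio of at most 0.5, beside 3.33% and 5.36% of all genes. Against other stromal nuclei, the intervals included 1 for Col15a1 (1.10, 0.805 to 1.49), Smoc2 (0.995, 0.773 to 1.27) and Sparcl1 (1.22, 0.926 to 1.59). Pparg, the adipogenic nuclear receptor, was at 276 CPM in the members, 120 CPM in progenitors and 448 CPM in other stromal nuclei, a ratio of 2.31 (1.63 to 3.21) over the first and 0.617 (0.437 to 0.856) over the second. A single nucleus held 12 of its 46 UMIs. Without that nucleus Pparg fell below 2 over progenitors (1.8, 1.20 to 2.61) and below 0.5 over other stromal nuclei (0.480, 0.323 to 0.694).

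Among the TGF-beta and BMP antagonists and carriers, 4 of 16 could be measured against other stromal nuclei, with Ltbp4, a carrier of latent TGF-beta, at a ratio of 2.79 (1.78 to 4.39) and Bmper, a BMP-binding protein, at 0.452 (0.344 to 0.587). Chrdl1, a secreted BMP antagonist with fewer counts, had 33 UMIs in 12 members against 5 in other stromal nuclei, a ratio of 16.4 (6.35 to 53.7), and a ratio of 3.90 (2.50 to 5.96) over progenitors. Of the 8 measured receptors and signal proteins of these pathways 0 reached a ratio of 2 or 0.5, beside 3.33% and 5.36% of all genes. Of the ligands, Bmp6 had 2 UMIs, Tgfb2 had 1 and Bmp1 had 13 in the members labelled KO.

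In the complement list, 3 of the 9 measured genes had a ratio of at least 2 over other stromal nuclei, where 3.33% of all genes did: C7 (above), the protease C1ra at 2.71 (1.75 to 4.20) and the C1 inhibitor Serping1 at 2.33 (1.92 to 2.82). C1qa, a macrophage gene, was at most 0.5, as were 5.36% of all genes. The central component C3 (1.16, 0.874 to 1.54) had an interval that included 1. In the coagulation list, to which F3 itself belongs, 0 of the 5 measured genes reached a ratio of 2 or 0.5, beside the same shares of all genes. Tfpi, the inhibitor of the tissue factor pathway, had 3 UMIs in the members labelled KO, and Thbd (thrombomodulin) had 7.

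Of 15 measured collagens, Col14a1, Col1a1 and Col1a2 had a ratio of at least 2 over other stromal nuclei, and Col5a3 a ratio of at most 0.5, beside 3.33% and 5.36% of all genes. Col1a1 stood at 6060 CPM against 2534 CPM (2.39, 2.19 to 2.61) and Col1a2 at 4583 CPM against 2135 CPM (2.15, 1.95 to 2.37). Without the 10 members that held at least 4 adipocyte markers their log2 ratios were 0.93 and 0.76, below the threshold. The elastic fibre genes Fbln1 (3.72, 2.16 to 6.52) and Eln (2.57, 1.75 to 3.76) were also higher, and Postn (periostin) at 0.232 (0.130 to 0.388) and Efemp1 at 0.270 were lower. Of the growth factor list, Igfbp4 (3.34), Igfbp7 (2.62) and Igfbp6 (2.56), which bind insulin-like growth factors, were higher, and Fgf10, a mitogen of preadipocytes, was lower at 0.461 (0.337 to 0.620).

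Against progenitors the direction of some of these genes was different: Igfbp7 was 5.63-fold higher (4.92 to 6.43) in the members, whereas Igfbp6 (0.601, 0.459 to 0.775) was lower. Cxcl12, a chemokine that holds haematopoietic cells in a niche, had 26 UMIs and a ratio of 4.4 (2.63 to 7.19), Kitl (stem cell factor) 3.55 (2.24 to 5.5) and Igf1 3.42 (2.28 to 5.02). Of 10 measured stromal cytokines, 2 reached a ratio of 2 and 4 (Ccl2, Ccl7, Cxcl13 and Il33) lay at 0.5 or less. In the growth factor list these were 7 and 5 of 22, beside 4.85% and 13.5% of all genes. Against other stromal nuclei, 0 of 3 measured stromal cytokines reached a ratio of 2 or 0.5. In the growth factor list 3 of 14 reached 2 (Igfbp4, Igfbp7 and Igfbp6) and 2 lay at 0.5 or less, beside 3.33% and 5.36% of all genes. Cxcl12, Kitl and Igf1 were thus not among the genes counted as higher there. Fmo1, a relative of the marker Fmo2, was 3.29-fold higher (2.52 to 4.25) than in progenitors and 1.56-fold (1.17 to 2.07) than in other stromal nuclei. The adipogenic regulators Ebf2 (0.378, 0.319 to 0.445) and Zeb1 (0.478, 0.389 to 0.581) and the factor Klf4 (0.374, 0.207 to 0.626) were lower than in progenitors.

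**Figure D4:**
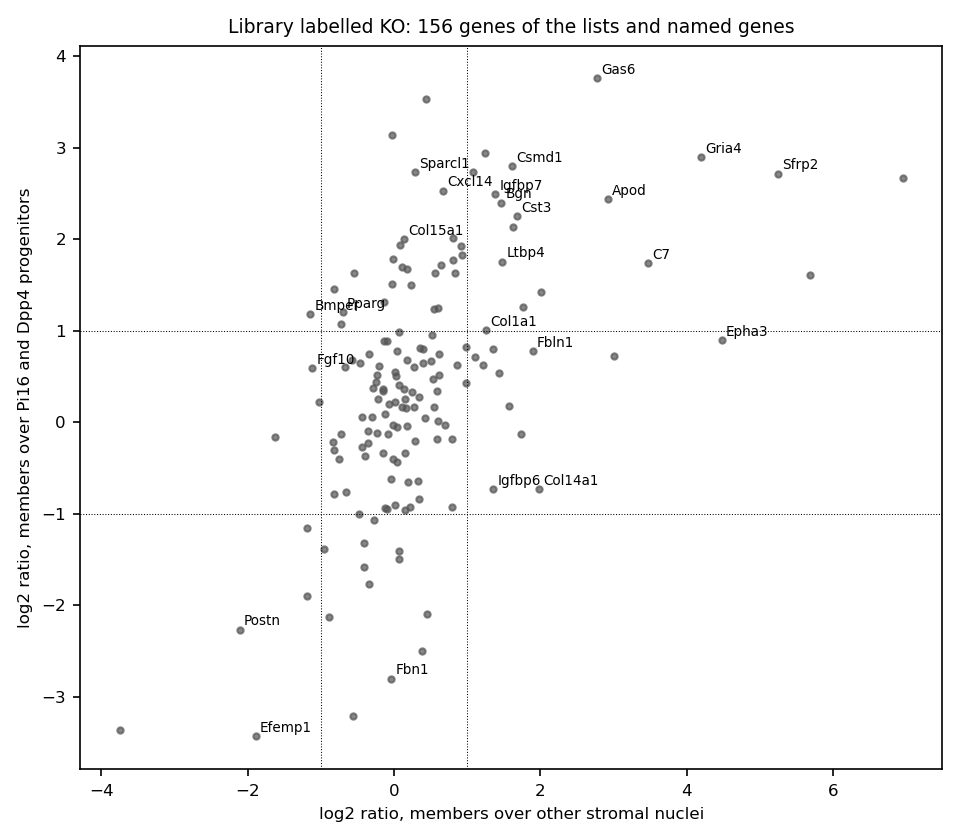
log2 ratio of members over other stromal nuclei (horizontal) and over progenitors (vertical) in the library labelled KO, for 156 genes of the lists and named genes with at least 50 UMIs in each comparison; dotted lines mark a ratio of 2 or 0.5. Both comparisons share the members, 18 genes have a ratio of at least 2 in both and 5 a ratio of at most 0.5 in both.

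The members varied among themselves, and the nuclei with 4 to 6 markers differed from those with 3 in genes that the rule did not use. C7 stood at 3252 CPM (2890 to 3646) in the 22 nuclei labelled KO with 4 to 6 markers and was found in 17 of them, and at 1479 CPM (1219 to 1778) in the 22 nuclei with 3, where 8 held it. Over the 396 genes with at least 50 UMIs in these nuclei, 8.08% reached 2 or more and 4.55% lay at 0.5 or less. The largest ratios were those of Gria4 (10.6, 4.65 to 29.8), Plcxd3 (7.95, 3.83 to 19.1), Gabra3 (7.75, 3.55 to 20.1) and Sfrp2 (6.32, 3.95 to 10.6). Without the single nucleus with the most UMIs of the gene they were 7.71 for Gria4, 4.75 (2.21 to 11.7) for Plcxd3, 6.1 for Gabra3 and 3.72 (2.26 to 6.4) for Sfrp2. Errfi1, an inhibitor of EGF receptor signalling, had 191 UMIs in 17 nuclei against 54 UMIs in 14 nuclei, a ratio of 3.00 (2.21 to 4.14).

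The estrogen receptor Esr1 (2.74, 1.44 to 5.56) was also higher with 4 to 6 markers, as were Col1a1 (2.51, 2.17 to 2.90) and Gas6 (2.50, 1.50 to 4.32), although 284 of the 754 UMIs of Col1a1 lay in a single nucleus. Leaving out the nucleus with the most UMIs gave 1.67 (1.43 to 1.96) for Col1a1, 1.92 for Gas6 and 1.87 (1.49 to 2.36) for C7, all below 2. The lowest ratios were those of Fgf10 (0.222, 0.103 to 0.439, and 0.351 without the nucleus with the most UMIs), Itih5 (0.289, 0.149 to 0.530), Cyth3 (0.335) and Cdk14 (0.348). Median depth was alike, at 3612 UMIs with 4 to 6 markers and 3346.5 UMIs with 3.

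Followed from 0 to 6 markers across the stromal nuclei labelled KO, C7 stood at 186, 314 and 153 CPM in other stromal nuclei with 0, 1 and 2 markers, and at 1479, 2555 and 3683 CPM in members with 3, 4 and 5 or 6. Gas6 stood at 69.9, 80.4 and 66.9 CPM below the threshold and at 275, 610 and 737 CPM above it. The step of Gas6 rested on few nuclei, with a UMI in 6 of 25 nuclei with 2 markers and in 7 of 22 with 3. A single nucleus held 7 of the 21 UMIs of Gas6 with 3 markers, and the level without that nucleus was not calculated. With all nuclei kept, the intervals of nuclei with 2 and 3 markers did not overlap for either gene. In the library labelled WT they did: Gas6 stood at 151 CPM (60.6 to 311) with 2 markers and 242 CPM (97.2 to 498) in the 6 members with 3, and C7 at 21.5 CPM (0.545 to 120) and 138 CPM (37.6 to 354). Bgn, by contrast, was already at 965 CPM (786 to 1173) in nuclei with 2 markers and at 864 CPM (668 to 1099) in members with 3. Vit stood at 57.3 CPM with 2 markers, 105 CPM with 3, 261 CPM with 4 and 323 CPM with 5 or 6. Sfrp2 and Clec11a stood at 2353 CPM and 341 CPM in the 11 nuclei with 5 or 6 markers, where a single nucleus held 67 of the 131 UMIs of Sfrp2 and 13 of the 19 of Clec11a. Without the nucleus with the most UMIs, Sfrp2 stood at 1286 CPM (990 to 1642) there, against 523 CPM (310 to 826) with 4 markers. Clec11a then stood at 121 CPM (44.2 to 262), which overlapped the interval of nuclei with 4 markers (18 to 255) and with 3 (8.1 to 115), and Gas6 at 467 CPM (293 to 707), below its level with 4 markers but with overlapping intervals.

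Pparg was higher in the nuclei with 3 markers, a difference carried in large part by few nuclei. It stood at 537 CPM (385 to 728) in members with 3 markers, with a UMI in 11 of 22, and at 55.5 CPM (18 to 129) in members with 4 to 6, with a UMI in 3 of 22. In the nuclei with 3 markers, 27 of the 41 UMIs lay in 3 nuclei, of which 2 held at least 4 markers of another cell type, and without those 3 nuclei Pparg stood at 240 CPM (131 to 403). When the members with at least 4 markers of another cell type were left out as well, it stood at 207 CPM (103 to 370) in 18 nuclei, from 11 UMIs, and its interval overlapped that of the remaining members with 4 to 6 markers (56.7 CPM, 18.4 to 132). Apod was also higher in the nuclei with 3 markers, at 1243 CPM against 511 CPM, but 73 of its 95 UMIs there lay in 1 nucleus.

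**Figure D5:**
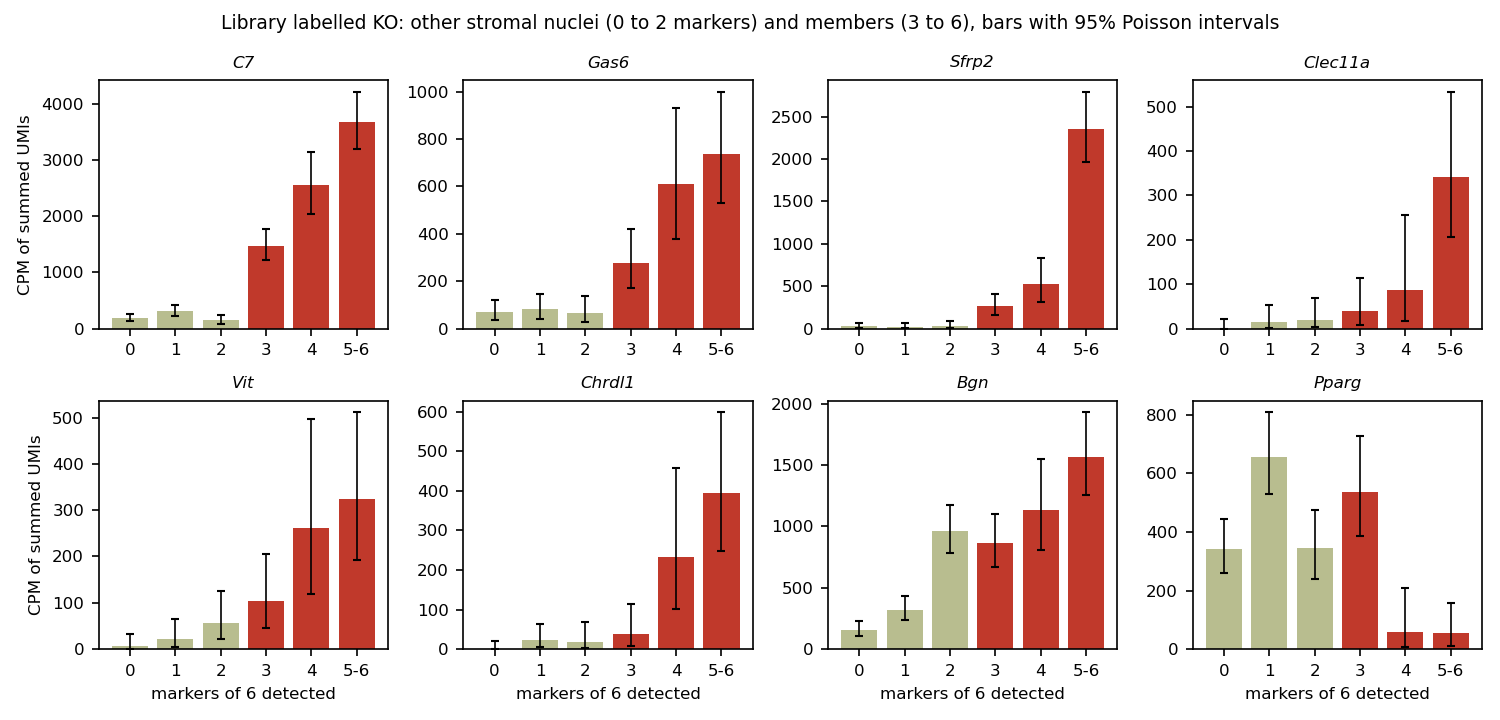
CPM of summed UMIs with 95% Poisson intervals in stromal nuclei of the library labelled KO, by how many of the 6 markers they held (67, 43 and 25 other stromal nuclei with 0, 1 and 2; 22, 11 and 11 members with 3, 4 and 5 or 6). C7 and Gas6 are higher from 3 markers on, although 1 nucleus held 7 of the 21 UMIs of Gas6 with 3 markers. Bgn is higher from 2 markers on, and Pparg is low in the nuclei with 4 or more.

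C7 also sorted some of the members' other genes, and was taken up for this after its values were seen. Among the 25 members labelled KO with a UMI of C7, Chrdl1 was found in 12, Plcxd3 in 9, Gria4 in 8, Gas6 in 16, Vit in 14, Csmd1 in 12 and Sfrp2 in 10. Among the 19 members without C7, Chrdl1, Plcxd3 and Gria4 were found in 0, Gas6 in 4, Vit in 3, Csmd1 in 1 and Sfrp2 in 2. Pparg was found in 3 of the 25 nuclei with C7 and in 11 of the 19 without. Bgn (19 of 25 and 18 of 19) and Mgp (18 of 25 and 15 of 19) were found in both. So were Igfbp7 (23 of 25 and 17 of 19), Apod (11 of 25 and 8 of 19), Cygb (8 of 25 and 7 of 19), Penk (4 of 25 and 3 of 19) and Col15a1 (11 of 25 and 12 of 19). The nuclei without C7 were no shallower, with a median of 3662 UMIs against 3421 UMIs. These are counts of nuclei from 1 library and stand as a description.

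Some members held transcripts of other cell types. Adipocyte markers were the most frequent in the library labelled KO, where 10 of the 44 members held at least 4 of 10 and 1 held none, although the rule allows only 1 of 4 of these genes. Their summed level was 805 CPM in the members, 752 CPM in progenitors and 862 CPM in other stromal nuclei, and 0 members labelled WT held 4. Without those 10 members the share labelled KO was 1.15%, and the log2 ratio over other stromal nuclei was 3.46 for C7, 2.49 for Gas6 and 1.58 for Bgn. In the library labelled KO, 3 members held at least 4 of 10 endothelial markers, 2 at least 4 of 10 macrophage markers, 1 at least 4 of 10 mural markers, and 0 at least 4 of 12 lymphocyte markers. Of the lymphocyte markers 10 were at 0 over all 44 members, and of the endothelial markers Cdh5 and Mmrn1 were at 0. Summed macrophage markers ranged from 0 to 5609 CPM in single members, with a median of 415 CPM, against 11562 CPM over macrophage-marker nuclei. In the library labelled WT, 2 of the 10 members held at least 4 macrophage markers, 3 at least 4 lymphocyte markers and 1 at least 4 endothelial markers, and summed macrophage markers ranged from 0 to 5672 CPM. Leaving out members with at least 4 macrophage, lymphocyte, endothelial or mural markers, a limit chosen after the data were seen, left 40 members labelled KO and 7 labelled WT. Epithelial markers were at 0 in the members of both libraries, and the 7 markers of dividing cells were at 0 in the members labelled KO.

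Between the libraries, genes of the members were compared over 508 genes with at least 50 UMIs. A ratio of labelled KO over labelled WT of at least 2 was found for 44.1% of them and of at most 0.5 for 11.6%, with a median log2 ratio of 0.64. These were 224 and 59 genes, and 262 and 25 with TMM scaling, which assumes that most genes are alike. The same shares were 29.8% and 7.8% in progenitors, and 26.1% and 17.4% in other stromal nuclei. The largest ratios were those of Naaladl2 (222 UMIs against 1), Rere, Gphn, Rbms3 and Gab2, and the smallest those of Gm26917 (0.0972, 0.0529 to 0.172), Igfbp5, AY036118, Ly6e and Slfn5. Genes with long introns were higher in the library labelled KO. The median log2 ratio was -0.71 in the 10th of genes with the shortest introns (at most 2941 bases) and 2.40 in the 10th with the longest.

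Of the rule markers, F3 was at 841 CPM in members labelled KO and 758 CPM in members labelled WT (1.11, 0.743 to 1.70), C2 had a ratio of 1.03 (0.491 to 2.42), and Mgp 2.13 (1.35 to 3.52). Gdf10 had a ratio of 2.54 (1.28 to 5.71), Fmo2 of 6.37 (2.66 to 19.9) and Meox2 of 6.24 (2.37 to 23.3). Both groups were chosen on these genes, so the values describe the choice. Gas6 (1.32, 0.753 to 2.45), Igfbp7 (1.28, 0.982 to 1.68) and Col1a1 (0.952, 0.828 to 1.10) had intervals that included 1. Aldh1a1, which makes retinoic acid, had 186 UMIs in 33 members labelled KO and 0 in those labelled WT, at least 14.7-fold higher at a floor of 3 counts over the group, and it was also higher in progenitors (11.3-fold, 6.82 to 20.3) and in other stromal nuclei (30.7-fold, 18 to 56.7). Ebf2 (7.22, 3.03 to 22.6), Zeb1 (8.40, 2.80 to 41.4) and Slit3 (4.97, 3.30 to 7.83) were higher in the members labelled KO as well, and each was also higher in both comparison classes of that library. Once intronic length was corrected for, log2 ratios moved from 2.31 to -0.084 for Slit3, from 2.85 to 1.23 for Ebf2 and from 3.07 to 1.45 for Zeb1. Those of Aldh1a1 (3.88 to 3.71) and C7 (3.59 to 3.14) moved less.

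Lower in the members labelled KO were Igfbp5 (0.128, 0.0778 to 0.206), Apoe (0.261, 0.187 to 0.367), which macrophages also express, Eln (0.452, 0.288 to 0.723), Fstl1 (0.483, 0.354 to 0.664) and Fbn1 (0.485, 0.295 to 0.817). TMM scaling, with factors of 0.854 (labelled KO) and 1.17 (labelled WT), raises these ratios and puts Eln, Fstl1 and Fbn1 above 0.5. Correction for intronic length moved log2 ratios from -1.04 to -2.67 for Fbn1, -1.14 to -1.32 for Eln and -1.05 to -1.22 for Fstl1. Those of Igfbp5 (-2.97 to -2.56) and Apoe (-1.94 to -1.23) moved up. Igfbp5 was lower in progenitors too (0.510, 0.460 to 0.566) and in other stromal nuclei (0.284, 0.207 to 0.384). Apoe also had a ratio of at most 0.5 in other stromal nuclei, and Eln in progenitors. Fbn1 and Fstl1 were not lower in the other classes of the library labelled KO: the ratios were 1.06 and 1.13 within progenitors, and 1.50 and 1.75 within other stromal nuclei. Among members with at least 1000 detected genes the log2 ratio of Eln was 0.14, against -1.14 in all members. With 10 nuclei labelled WT, of which 9 held at least 1 macrophage marker and 3 at least 4 markers of another cell type, these values rest on few cells of a single library.

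In the library labelled WT the members were also set against its other stromal nuclei. Of 1819 genes, 8.85% reached 2 or more and 17.2% lay at 0.5 or less, and against progenitors 8.02% and 17.1% of 773 did. Of 13 measured collagens 9 had a ratio of at least 2, and of 21 matrix glycoproteins and proteoglycans 12, with none of either list at 0.5 or less. Dcn, a rule gene, was at 6267 CPM in the members labelled WT and at 1635 CPM in the other stromal nuclei of that library. The summed markers of lymphoid stroma were at 455 CPM in these members and 2203 CPM in those other stromal nuclei, and their part in the differences was not tested.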

How the data were processed

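Nuclei of iWAT were profiled by 10x 3′ v3.1 single-nucleus RNA-seq. The authors deposited UMI counts per gene and barcode; the file headers name Cell Ranger 6.1.1, and the submitters' processing notes name mm10 and Seurat 4. Whether intronic reads were counted or free RNA was removed is not given in the sources used here. The members, gene lists and comparisons were chosen with earlier results of these data known. Raw counts were filtered (at least 500 genes, at most 5% mitochondrial UMIs), the rule was applied, and counts were summed per class and scaled to CPM. Ratios used genes with at least 50 counts, a count of 0 was set at 3 counts, and a ratio of 2 or 0.5 was the threshold. With 1 library per genotype no test was run; Poisson, Clopper-Pearson and conditional binomial intervals cover counting error, and were tested on simulated data. In text, the rule genes, the 15 highest and 5 lowest genes against other stromal nuclei, and the 5 highest and lowest between libraries are named. Of list genes with at least 50 counts in members, some but not all are named. List genes with fewer counts, the highest and lowest genes against progenitors, between member subgroups and C7's partners were added after their values were seen. Macrophage-marker nuclei held at least 4 of 10 markers. Thinning used 1000 UMIs. scanpy 1.11.5 (Scrublet) and edgeR 4.0.16 (TMM) served the alternatives, and intronic lengths came from GENCODE gene models of another build, matched by gene ID for 98.0% of genes.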

Additional observations from a re-analysis of the deposited data

Results flagged for a closer look

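For 2 genes, the ratio of labelled KO over labelled WT was at least 2 in members and at most 0.5 in other stromal nuclei, or the reverse. For both genes the intervals for counting error excluded 1 in each class. Genes that ran in opposite directions without reaching this threshold in both classes, such as Fstl1 above, were not flagged. The difference between the classes was not tested. Ccl11, the chemokine eotaxin, had a ratio of labelled KO over labelled WT of 0.475 (0.279 to 0.833) in members and 2.15 (1.56 to 3.00) in other stromal nuclei. Gm26771, a noncoding RNA, had a ratio of 3.96 (1.28 to 19.9) in members, from 50 and 3 UMIs, of which 27 of the 50 lay in a single nucleus, and of 0.102 (0.00239 to 0.691) in other stromal nuclei, from 1 and 12 UMIs. Without that nucleus the ratio in members was 1.89, with an interval that included 1 (0.571 to 9.83). The ratio of Ccl11 in members without the nucleus labelled KO with the most UMIs was 0.405 (0.232 to 0.720). With TMM factors of 0.854 (labelled KO) and 1.17 (labelled WT), however, the ratio of Ccl11 in members lies above 0.5 and its interval includes 1. Correction for intronic length moved its log2 ratio in members from -1.07 to -0.667.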

How the results depend on the processing

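No paired analysis was possible because each genotype had 1 library. The share of members was higher in the library labelled KO in all 12 alternatives, at ratios from 1.89 to 8.26, the latter with the immune and endothelial limit of the comparison classes. With at least 1000 detected genes the share labelled WT was 0.745% and the ratio of shares 1.89. With at least 2 of the 6 markers the shares were 1.04% (WT) and 2.65% (KO), a ratio of 2.54, and with at least 4 they were 0.110% and 0.747%. The share labelled KO was 0.747% with at most 1 of the 9 progenitor genes, 0.442% with none of the 4 adipocyte genes and 2.34% with no limit on these. With no limit on the 9 progenitor genes the shares were 0.5755% and 3.63%. Between the libraries, 224 genes reached a ratio of 2 and 59 lay at 0.5 or less, against 720 and 240 with at least 20 counts, 83 and 17 with at least 100 counts, and 96 and 33 with at least 4 markers; without members with 4 or more adipocyte markers, chosen after the data were seen, 144 reached 2. TMM scaling left 25 genes at 0.5 or less, and correction for intronic length left 94 at 2 or more. The latter also turned log2 ratios from 1.39 to -1.30 for Esr1, past the opposite threshold. It turned them from 2.31 to -0.084 for Slit3, 2.07 to -0.32 for Lama2 and 2.12 to -0.27 for Lsamp. Eln turned to 0.14 with at least 1000 genes and Lpl to 0.12 with at least 4 markers. Against other stromal nuclei 79 genes were higher and 127 lower by this threshold, against 36 and 50 with at least 100 counts; with at least 4 markers 243 were lower. With progenitors as the comparison the counts were 274 and 765, and log2 ratios turned to -0.73 for Col14a1, -0.13 for Igfbp4, -0.73 for Igfbp6, 0.59 for Fgf10, 1.18 for Bmper and 0.22 for Col5a3. The left-out ratio of Gdf10 was 3.1 after thinning. The cause of these changes was not tested, except that higher minimum counts test fewer genes. With 10 members labelled WT, ratios of genes with few counts have wide intervals.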
